A study of Mus musculus with 12 samples.

Results

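Aβ+LPS was compared with LPS alone, to ask which genes Aβ oligomers change in dendritic cells that also receive LPS. The comparison takes 6 of the 12 RNA libraries of the series, 3 of Aβ+LPS and 3 of LPS, which were taken by their treatment labels. All 12 libraries came from wild-type C57BL/6 mice at 12 weeks of age and from BM-DCs, dendritic cells grown out of bone marrow with the growth factor GM-CSF. LPS comes from the outer membrane of bacteria and matures dendritic cells, and both the LPS and the Aβ+LPS group received 100 ng/ml of it over 18 h. The Aβ+LPS group had also received oligomers of human recombinant Aβ1-42 at 0.5 µM, over 4 d in all. By the paper's description the oligomers were started before the LPS. The 18 h in the labels do not give the time from the start of LPS to harvest. The series further holds untreated cells (Ctrl) and cells with the oligomers alone (Aβ), 3 libraries each. They share in the estimate of spread behind every p-value below. Their values are also given where the effect of Aβ without LPS is set beside its effect with LPS. No library with a scrambled peptide was analysed here, so peptide and no peptide are compared. BM-DCs grown with GM-CSF are a culture model that holds cells of mixed maturity, and whole cultures were sequenced. Fewer cells of a type and less RNA per cell therefore cannot be told apart in any value below. The sources used here do not say whether the 3 libraries of a group came from separate mice or cultures, so p-values measure the spread between these libraries, which may be technical.

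LPS binds a receptor complex of Tlr4, Ly96 and Cd14 and switches on NF-κB and interferon regulatory factors, which drive cytokines, chemokines and antigen presentation. A maturing dendritic cell takes up less antigen, shifts its metabolism toward glycolysis and gains the chemokine receptor Ccr7, with which it migrates to lymph nodes. Aβ oligomers are soluble aggregates of the peptide that forms plaques in Alzheimer's disease, and pattern recognition and scavenger receptors of myeloid cells bind Aβ.

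Expression was measured as normalized counts per gene, and the 6 libraries held between 25557721 and 29690965 reads in genes. Of the genes, 14018 averaged 10 or more normalized counts in LPS or Aβ+LPS and were tested with limma on log2(normalized count + 1), with a call at adjusted p-values below 0.05. A fold change on this scale, log2(fc), is smaller than the true one where counts are low. Adjusted p-values below are those of limma. The label of the cells was checked first. Itgax, the integrin CD11c, stood between 32935 and 34099 normalized counts in the LPS libraries and between 24114 and 25370 in Aβ+LPS, and the class II gene H2-Ab1 between 16494 and 18364 and between 22766 and 25662. Flt3 and Zbtb46, which set classical dendritic cells apart from macrophages, were low, with 17.6 to 33.8 and 149 to 174 normalized counts in LPS and 88.6 to 107 and 370 to 419 in Aβ+LPS. The macrophage genes Adgre1 and Csf1r stood at 28739 or more and 20693 or more in all 6 libraries. Markers of both cell types were thus present. Haemoglobin genes and T-cell receptor constant genes on the marker lists were listed at 0 or stayed under the filter.

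The response was broad and even in direction. In Aβ+LPS 3980 genes were higher than in LPS, or 28.4% of the genes tested, and 4015 were lower, or 28.6%, so that 57.0% changed. Every count of list members below is to be read beside these shares. By more than 1 on the log2 scale 1031 genes rose (7.35%) and 1019 fell (7.27%). By more than 2, 365 rose and 372 fell, and by more than 3, 133 rose and 84 fell. The median log2(fc) of all genes tested was 0.016, with quartiles of −0.275 and 0.307, and the median size of a called change was 0.499. The libraries of the groups did not overlap for 8643 genes, or 61.7%. Small changes could pass because the libraries lay close together: the median SD of a gene on the log2 scale was 0.104 in LPS and 0.087 in Aβ+LPS, and the smallest change called was 0.094. The share called was higher at higher levels, from 39.1% of genes called at means of 10 to 100 normalized counts to 84.2% at 10000 and above. Of 12347 protein-coding genes tested, 3671 rose and 3743 fell, and of 369 lincRNA genes 89 and 82.

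**Figure D1:**
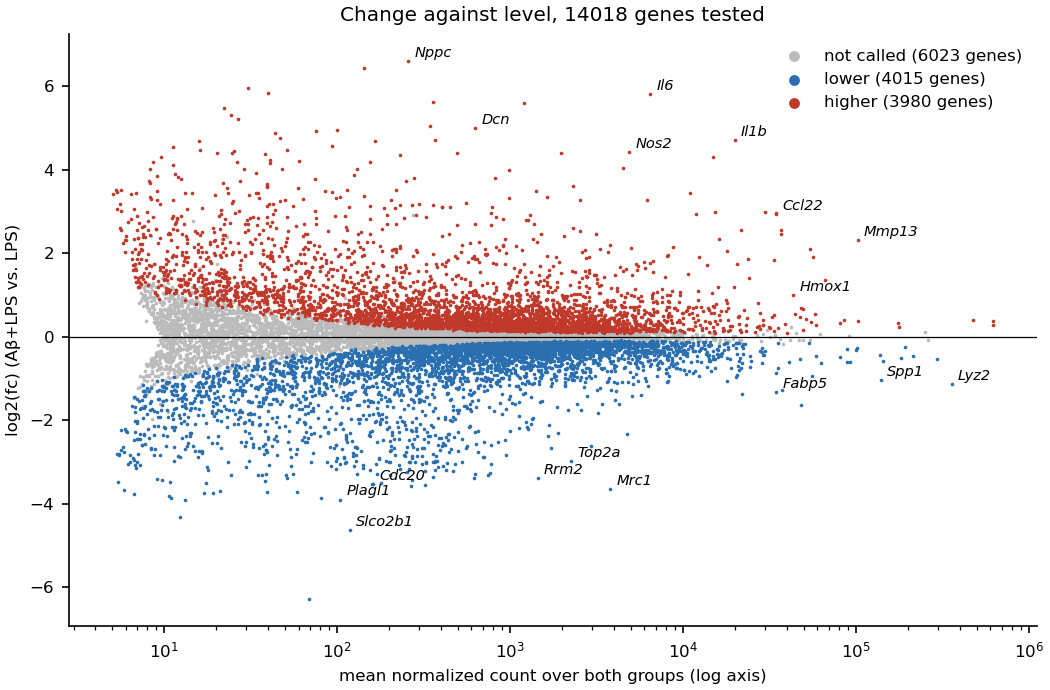
Each point is 1 of the 14018 genes tested, with its mean normalized count over the LPS and Aβ+LPS groups on a log axis and its log2(fc) in Aβ+LPS vs. LPS. The 3980 genes called higher and the 4015 called lower lie on both sides of 0 at every level, and changes of more than 4 on the log2 scale lie almost wholly on the higher side.

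Cytokines that polarise T-cells and drive fever and the acute phase were among the genes that rose most. Il6 (chr5:30013114-30019981, GRCm38) stood at 235, 215 and 223 normalized counts in the LPS libraries and at 11491, 13226 and 13396 in those of Aβ+LPS. The lowest Aβ+LPS library lay far above the highest LPS library, with a log2(fc) of 5.81 (SE 0.10, adjusted p = 8.4e-21). The naming rule required of Il6 that the groups not overlap, which was so for 61.7% of all genes tested. Il12b (chr11:44400063-44414033), the chain shared by IL-12 and IL-23, had 540, 525 and 484 against 8772, 8284 and 8599, a log2(fc) of 4.05 (SE 0.10, adjusted p = 1.7e-18). Il12a, the other chain of IL-12, was at 6.76, 10.9 and 19.5 in LPS and at 286, 322 and 353 in Aβ+LPS. Of 9 tested genes of the IL-6 and IL-12 families all 9 rose, with a median log2(fc) of 2.18 beside 0.016 over all genes tested. Lif and Ebi3, a cytokine of the IL-6 family and a chain of IL-27 and IL-35, had log2(fc) values of 2.18 and 1.57, and Il27 one of 1.68. Smallest in this family were the changes of Clcf1 and Osm, at 0.38 and 0.22.

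Il1b went from 1436, 1484 and 1513 normalized counts to 37536, 36601 and 41393, with a log2(fc) of 4.70 (SE 0.06, adjusted p = 1.7e-22), and Il1a rose by 2.99. The signalling receptor Il1r1 and the decoy receptor Il1r2 rose by 1.79 and 1.33, and the inflammasome sensor Nlrp3 by 1.17. The receptor antagonist Il1rn had 42840 ± 2080 normalized counts in LPS and 40783 ± 1260 in Aβ+LPS (SD, n = 3 each) and did not pass (adjusted p = 0.20). Neither did Casp1, the protease that cuts IL-1β, at 4392 ± 138 and 4455 ± 67.9, while its adaptor Pycard had a log2(fc) of −0.91. Of 15 tested members 9 rose and 2 fell, with a median of 0.73. Il18 was the other member that fell, with libraries that overlapped and a call that was lost in some alternatives.

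Growth factors and TNF ligands moved in both directions. Csf3, the granulocyte growth factor G-CSF, had 4.83, 7.94 and 3.90 normalized counts in LPS and 166, 213 and 206 in Aβ+LPS, a log2(fc) of 4.94 (SE 0.29). Inhba, a chain of activin A, went from 23170, 15759 and 23737 to 85852, 88721 and 89026. The second LPS library was the lowest for Inhba, and the groups still lay apart, with means of 20889 ± 4451 and 87867 ± 1751 (SD, n = 3 each). Igf1 and Gdf15, an insulin-like growth factor and a stress cytokine, had log2(fc) values of −1.51 and −2.62 and fell. Among 11 tested growth factors 8 rose and 3 fell. Tnf had a log2(fc) of 1.55. Of 14 TNF superfamily ligands 7 rose and 5 fell, beside 28.4% and 28.6% of all genes tested. Tnfsf18, the ligand of GITR, fell by 2.38, and Tnfsf8, the ligand of CD30, by 1.07.

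Chemokine genes changed in both directions. Cxcl1 (chr5:90891241-90893115), which draws neutrophils through CXCR2, had 196, 151 and 195 normalized counts in LPS and 3675, 3741 and 3970 in Aβ+LPS. No library of one group came near the other, while 61.7% of all genes tested had groups that did not overlap. The log2(fc) of Cxcl1 was 4.40 (SE 0.13, adjusted p = 3.6e-17). Cxcl2 and Cxcl3, of the same kind, rose by 3.44 and 2.14. Ccl22 and Ccl17, ligands of CCR4 on T-cells, rose by 2.93 and 2.60, with 8088, 8399 and 7678 normalized counts of Ccl22 in LPS and 61010, 59427 and 64216 in Aβ+LPS. Ccl2 (chr11:82035571-82037453), the main ligand of CCR2 on monocytes, went the other way, from 5111, 5493 and 4588 to 1350, 1372 and 1573, with a log2(fc) of −1.82 (SE 0.06, adjusted p = 7.3e-16). Ccl7 and Ccl12, which also bind CCR2, fell by 1.93 and 2.38. Ccl6, which is abundant in myeloid cells of mice, went from 74194, 72720 and 71031 to 23598, 22645 and 23829. Of 13 CC chemokines 7 rose and 5 fell (median 0.17), and of 11 CXC and other chemokines 6 rose and 3 fell (median 1.30). The platelet chemokines Pf4 and Ppbp fell by 1.04 and 2.44. Both are on the megakaryocyte marker list, which summed to 137 to 169 CPM, counts scaled to the library's reads, in LPS and 65.7 to 76.0 in Aβ+LPS, and of 4 markers tested 2 rose and 2 fell. The part of such cells in this result was not tested. Among 11 chemokine receptors Ccr7 and Cxcr5 rose by 2.54 and 2.72 and Ccr2 fell by 1.08, with 3 that rose and 4 that fell in all, near the 28.4% and 28.6% over all genes tested.

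Enzymes of lipid mediators, nitric oxide and amines held some of the widest changes. Ptgs2 (chr1:150100031-150108227), the inducible cyclooxygenase, had 1499, 1294 and 1512 normalized counts in LPS and 26525, 29033 and 29579 in Aβ+LPS. The groups lay apart by a log2(fc) of 4.31 (SE 0.06, adjusted p = 1.7e-22). Ptges, which makes prostaglandin E2 from its product, rose by 3.34. Enzymes of other branches fell, namely Hpgds of prostaglandin D2 by 2.48, Tbxas1 of thromboxane by 1.12 and Alox5 of the leukotrienes by 1.08. Of 14 enzymes tested 5 rose and 6 fell, beside 28.4% and 28.6% of all genes tested. Nos2, the inducible nitric oxide synthase, stood at 436, 396 and 473 in LPS and at 8861, 9120 and 10043 in Aβ+LPS, a log2(fc) of 4.42. Slc7a2, which brings in arginine, rose by 2.55 and Acod1, which makes itaconate, by 2.34. The arginases Arg2 and Arg1, which use the same arginine, rose as well, by 2.46 and 1.76. In this list 12 of 14 genes rose and 1 fell, Ch25h, a cholesterol hydroxylase, by 1.04, with a median of 1.83. Hdc, which makes histamine, went from 14.5, 18.9 and 26.3 to 678, 636 and 696. Hdc is also a marker of mast cells and basophils, and that list summed to 18.5 to 21.2 CPM in LPS and 52.3 to 56.1 in Aβ+LPS. Of its 14 genes 5 were tested, of which 4 rose and none fell, with a median of 0.87. Without the filter the median of the list was 0.34, and with a minimum mean of 50 it was 0.67. Among the tested markers Gata2, a transcription factor of mast cells and progenitors, rose by 0.87. Cpa3, a mast cell protease, had 0, 0.99 and 0 normalized counts in LPS and 28.9, 5.17 and 5.10 in Aβ+LPS, too few for a fold. The defining genes Mcpt4, Tpsb2, Tpsab1, Fcer1a and Cma1 were at 0 in all 6 libraries. The part of such cells was not tested.

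Peptides that act on vessels moved apart. Nppc, the C-type natriuretic peptide (chr1:86666291-86670571), had 3.86, 3.97 and 4.87 normalized counts in LPS and 541, 465 and 527 in Aβ+LPS, the widest rise of any named gene with a log2(fc) of 6.61 (SE 0.22). Nppb, the B-type peptide, had 132, 135 and 142 in LPS and 0, 1.72 and 1.02 in Aβ+LPS, where so few reads leave the size of its fall uncertain. Edn1, which encodes endothelin, rose by 2.25 and Ramp3, a receptor partner of adrenomedullin, by 3.10, while Ramp1, which serves the CGRP receptor, fell by 2.09. Of 14 tested genes of this group 8 rose and 3 fell. Among 17 purinergic genes 7 rose and 8 fell, beside 28.4% and 28.6% of all genes tested. The adenosine receptor Adora2a and the enzyme Nt5e, which makes adenosine, rose by 2.27 and 1.30, and the nucleotide receptors P2ry1 and P2ry12 fell by 1.87 and 1.75.

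NF-κB genes and the brakes on NF-κB rose together. Of 15 subunits, kinases and inhibitors 13 rose and none fell, with a median of 0.78, beside 28.4% of all genes tested that rose. Nfkbia, the inhibitor IκBα, had 1428, 1408 and 1527 normalized counts in LPS and 5907, 5810 and 6016 in Aβ+LPS, a log2(fc) of 2.02 (SE 0.05), and Nfkbiz rose by 2.17. The subunits Nfkb2 and Nfkb1 rose by 1.44 and 1.05. Rela, the most widely used subunit, had 1277 ± 112 and 1410 ± 66.5 and did not pass (adjusted p = 0.052). Of 20 feedback inhibitors of inflammation 14 rose and 2 fell. Socs3, which blocks cytokine receptors, rose from 315, 301 and 319 to 2149, 2098 and 2267, and Zc3h12a, an RNase that cuts cytokine mRNA, rose by 1.53. Irak3, an inhibitor of Toll-like receptor signalling, rose by 1.52, and Sigirr and Zfp36l2 fell by 1.03 and 0.77. Immediate early genes were mixed, with 8 of 17 higher and 5 lower, beside 28.4% and 28.6% of all genes tested. Ier3 rose by 1.54, while Fosb, Fos and Jun fell by 1.54, 0.70 and 0.70.

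Receptors for microbial products changed one by one. Cd14, which hands LPS to its receptor, rose from 11395, 11220 and 11742 normalized counts to 63676, 60173 and 64538, with a log2(fc) of 2.45 (SE 0.05). Tlr4 itself had 2936 ± 164 and 3186 ± 151 and did not pass (adjusted p = 0.057). Tlr2 rose by 1.17, and the nucleic acid receptors Tlr8, Tlr13 and Tlr7 fell by 1.43, 0.76 and 0.44. Of 23 tested receptors and adaptors 11 rose and 6 fell. Among 16 C-type lectin receptors 6 rose and 6 fell, beside 28.4% and 28.6% of all genes tested. Clec4e, the receptor of mycobacterial cord factor, stood at 6698, 6391 and 6835 and at 51933, 53168 and 53553, a log2(fc) of 2.99, and Trem1, which amplifies such signals, rose by 1.69. Mrc1, Clec12a and Clec10a fell by 3.65, 2.09 and 2.04.

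Genes of dendritic cell maturation rose almost as a whole. Of 19 tested members 18 rose and 1 fell, Mreg with −0.34, and the median was 1.47. Cd40 (chr2:165055627-165072948), through which T-cells license dendritic cells, had 215, 265 and 214 normalized counts in LPS and 2552, 2544 and 2728 in Aβ+LPS. Each Aβ+LPS library was above each LPS library, with means of 231 ± 29.3 and 2608 ± 104 (SD, n = 3 each). The groups did not overlap for 61.7% of all genes tested. Ccr7 went from 681, 862 and 709 to 4317, 4394 and 4293, and the actin bundler Fscn1 and the amino acid oxidase Il4i1 rose by 2.35 and 1.76. Irf4 and Zbtb46, transcription factors of dendritic cells, rose by 1.48 and 1.31, whereas Irf8 and Batf3, of the cross-presenting lineage, fell by 0.44 and 0.46. Among 16 genes of dendritic cell identity 8 rose and 4 fell. Presentation genes changed less in size than these, with median log2(fc) values of 0.33 over 22 genes of class II (14 higher, 6 lower) and 0.36 over 22 genes of class I (17 higher, 2 lower). In class II the accessory chains H2-Ob and H2-Oa, which restrain peptide loading, had the widest rises, of 1.72 and 1.67. B cells express them too, and the list of B cell markers summed to 74.6 to 80.2 CPM in LPS and 72.8 to 138 in Aβ+LPS. Of 6 B cell markers tested 3 rose and 1 fell, with a median of 1.12, which was 0.31 with a minimum mean of 50. The part of such cells was not tested. Of 20 co-inhibitory and tolerogenic genes 14 rose and 6 fell, among them Aldh1a2, which makes retinoic acid, at 2.84 and the receptor Btla at 2.69.

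Interferon-stimulated genes were divided and barely moved on balance. Of 34 genes tested 12 rose, 7 fell and 15 did not pass, with a median of 0.06. Over all genes tested 28.4% rose and 28.6% fell, so the list as a whole did not stand out. Isg15, a ubiquitin-like modifier, had 883, 751 and 933 normalized counts in LPS and 1878, 2040 and 2241 in Aβ+LPS, a log2(fc) of 1.26 (SE 0.14). Ifit2, which binds viral RNA, went down from 1639, 1258 and 1657 to 731, 685 and 576, a log2(fc) of −1.19 (SE 0.18). Oas3, Ifit3 and Mx1 fell by 0.98, 0.90 and 0.79, and Oasl1 rose by 1.21. Irf7, which amplifies this response, had 1644 ± 241 normalized counts in LPS and 1473 ± 183 in Aβ+LPS (SD, n = 3 each) and did not pass. Of 13 guanylate binding proteins and other immunity GTPases, which interferon-γ induces, 7 rose and 1 fell, Gbp8 with −0.29. Gbp5 went from 317, 294 and 352 to 2081, 2265 and 2335, with a log2(fc) of 2.79.

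**Figure D2:**
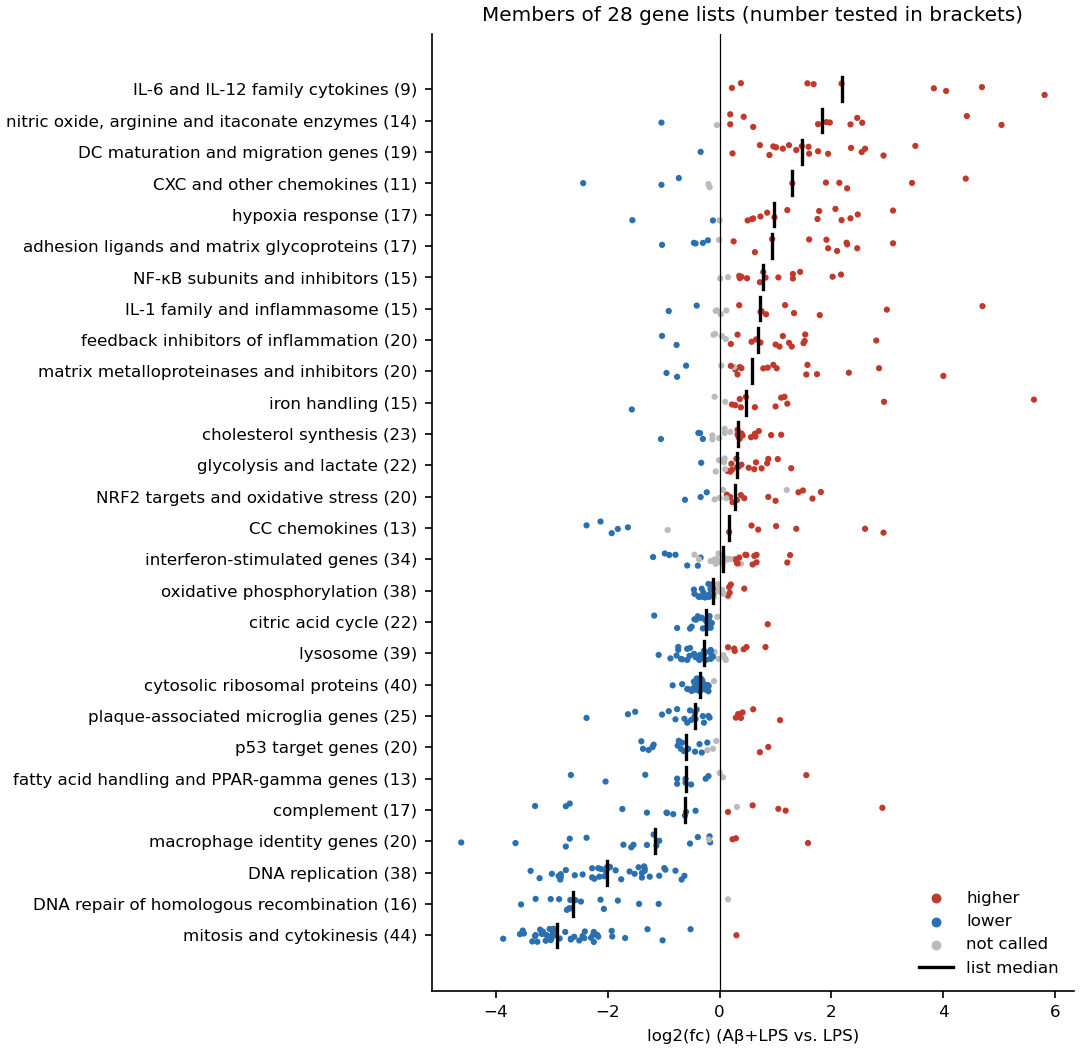
Each point is 1 tested member of a gene list at its log2(fc) in Aβ+LPS vs. LPS, red where called higher, blue where called lower and grey where not called, and the black line is the list's median. Lists of cytokines, mediators and dendritic cell maturation lie to the right, with medians up to 2.18, and replication, homologous recombination and mitosis to the left, with medians down to −2.91.

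Several of the widest changes lay outside the gene lists. Cemip, which takes part in breaking down hyaluronan, had 7.72, 2.98 and 0 normalized counts in LPS and 249, 291 and 308 in Aβ+LPS, a rise second in size to that of Nppc. Slc1a2, a glutamate transporter known from astrocytes, went from 29.9, 55.6 and 66.3 to 2331, 2403 and 2376 (adjusted p = 1.5e-13). The rule that picked both genes required that the libraries of the groups not overlap. Ggt1, which cleaves glutathione outside the cell, Hephl1, a copper oxidase, and Col5a3, a chain of collagen V, rose by 4.92, 4.56 and 4.41. Stfa3, a protease inhibitor, rose by 4.71, but near-identical copies leave its reads uncertain. Of abundant genes, Serpinb2, Procr and Srgn rose by 2.96, 2.56 and 1.84. Among those that fell were genes of dividing cells, with Depdc1b at −3.71, the DNA glycosylase Neil3 at −3.53, the kinesin Kif4 at −3.44 and the checkpoint gene Clspn at −3.38.

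Genes of macrophage identity fell. Of 20 tested members 16 fell and 3 rose, with a median of −1.15. Mrc1 (chr2:14229392-14332057), the mannose receptor, had 7256, 6677 and 7176 normalized counts in LPS and 562, 558 and 563 in Aβ+LPS, a log2(fc) of −3.65 (SE 0.06, adjusted p = 7.4e-21). C1qb, a chain of complement C1q, went from 1144, 1202 and 1085 to 173, 164 and 169, and C1qc fell by 2.68. The transporter Slco2b1 had a log2(fc) of −4.62. Lyz2, the lysozyme of myeloid cells, stood at 479760, 522494 and 475710 in LPS and at 220173, 222521 and 233684 in Aβ+LPS. For none of these genes did a library of one group reach the other, but the naming rule required this of Mrc1 and Slco2b1. The groups did not overlap for 61.7% of all genes tested. The exceptions that rose were the scavenger receptor Marco by 1.58, the glycoprotein Gpnmb by 0.29 and Adgre1 by 0.23. Csf1r, the receptor for the macrophage growth factor, fell by 0.17. Siglecf had a log2(fc) of −2.62. It is also an eosinophil marker, and that list summed to 45.0 to 48.9 CPM in LPS and 12.3 to 13.8 in Aβ+LPS, with Prg3 and Gata1 at 0. Of 4 eosinophil markers tested 2 fell, Siglecf itself and Ear1 by 1.95. The part of such cells was not tested.

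Of 17 complement genes 11 fell and 5 rose. C1s1, a protease of the classical pathway, rose from 42.5, 53.6 and 40.0 normalized counts to 327, 367 and 338, and C3 rose by 1.18. Of 17 scavenger receptors 7 fell and 5 rose, beside 28.6% and 28.4% of all genes tested. Mertk, which takes up apoptotic cells, was at −1.08 and Olr1, a receptor of oxidised lipoproteins, at 1.71. Among 7 Fc receptors the activating Fcgr4 and Fcgr1 fell by 1.79 and 1.58 and the inhibitory Fcgr2b rose by 1.08. Of 23 inhibitory and paired receptors 13 fell and 6 rose. Of 39 myeloid transcription factors 20 fell and 14 rose, among them Pparg with a log2(fc) of −2.04, from 435, 423 and 448 to 109, 109 and 98.0, and Zeb1 with 1.67.

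Genes of cell division fell almost without exception. All 38 tested genes of DNA replication were lower, with a median of −2.01, beside 28.6% of all genes tested that were lower. Mcm5 (chr8:75109569-75128439), a subunit of the replicative helicase, had 1656, 1709 and 1650 normalized counts in LPS and 225, 223 and 252 in Aβ+LPS, a log2(fc) of −2.84 (SE 0.07, adjusted p = 9.9e-19). Rrm2, the regulated subunit of ribonucleotide reductase, went from 2608, 2753 and 2568 to 260, 239 and 261. Libraries of one group never reached the other in either gene, which the naming rule required of Rrm2. The same held for 61.7% of all genes tested. The members that fell least were Gins3, Pola2 and Tyms, with −0.63, −0.68 and −0.79. Of 16 genes of homologous recombination 15 fell (median −2.62), led by Rad51ap1 at −3.55 and Fanci at −3.29, and only Rbbp8, at 0.15, did not pass.

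In mitosis and cytokinesis 43 of 44 genes fell, with a median of −2.91. Ccna2 (chr3:36564865-36572150), cyclin A2, had 1148, 1181 and 1106 normalized counts in LPS and 120, 141 and 91.8 in Aβ+LPS, a log2(fc) of −3.29 (SE 0.11, adjusted p = 1.5e-16). Cdc20, which starts anaphase, was at 304, 313 and 281 and at 29.8, 32.8 and 16.3, and the kinesin Kif11 at 902, 941 and 955 and at 126, 87.9 and 144. Pttg1, the securin, was the member that rose, from 467, 491 and 440 to 518, 560 and 652, with a log2(fc) of 0.30 (SE 0.08, adjusted p = 0.0034). Of 11 replication-dependent histones 2 rose and 1 fell, and 13 more of that list stayed under the filter.

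Promoters of the mitosis genes often carried a CHR element, to which the cell cycle repressor DREAM binds, near CCAAT boxes, which bind NF-Y. The 4 stretches below, from RefSeq's GRCm38.p6, are shown because each holds both motifs upstream of its start site in a mitosis gene that fell, and they were chosen after their values were seen. Capitals mark the CHR letters TTTGAA and the letters CCAAT, each on either strand. Each is read 5′ to 3′ on the strand of its gene.
Kif11 (chr19:37376325-37376380, plus strand): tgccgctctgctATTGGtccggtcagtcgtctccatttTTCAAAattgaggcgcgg
Cdc20 (chr4:118437344-118437408, minus strand): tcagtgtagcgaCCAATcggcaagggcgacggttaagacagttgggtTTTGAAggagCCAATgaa
Depdc1a (chr3:159495382-159495432, plus strand): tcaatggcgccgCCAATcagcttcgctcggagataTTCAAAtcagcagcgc
Ect2 (chr3:27153917-27154004, minus strand): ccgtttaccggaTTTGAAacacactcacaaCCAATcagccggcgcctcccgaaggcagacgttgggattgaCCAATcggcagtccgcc

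RefSeq promoters, 250 bases before to 50 after a start, were matched by symbol for 10286 of 14015 tested symbols. The CHR letters stood on either strand in 29 of 37 mitosis promoters, or 78.4%, beside 12.4% of all promoters of tested genes, 13.3% of 30 DNA replication promoters and 17.9% of all promoters in the table. CCAAT was found in 78.4% of the mitosis promoters and 39.0% of those of all genes tested, and both motifs together in 26 mitosis promoters and in 5.31% of all. Among the genes that fell by more than 1 on the log2 scale 21.7% held the CHR letters, and among those that rose by more than 1, 12.8%. The log2(fc) was −2.99 for Kif11, −3.52 for Cdc20, −3.87 for Depdc1a and −2.42 for Ect2, which stands beside these letters as a description only. On the rising side the letters of a κB motif, GGGNNNNNCC on either strand, did not set genes apart, with 66.6% of promoters of genes that rose by more than 1 and 67.0% of all. Il6 is shown since it rose furthest among the cytokines. Its stretch has 3 κB matches, 2 of which overlap, in capitals.
Il6 (chr5:30013017-30013092, plus strand): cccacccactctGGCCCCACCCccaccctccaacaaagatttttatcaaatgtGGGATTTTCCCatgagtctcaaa

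**Figure D3:**
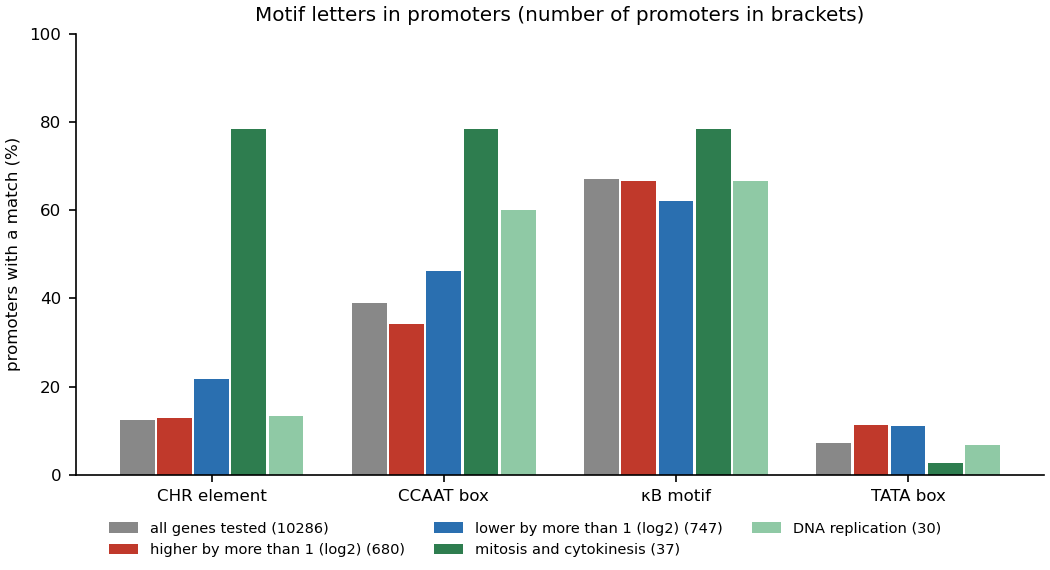
Bars give the percent of RefSeq promoters that hold the letters of a motif on either strand, for all genes tested, genes that rose or fell by more than 1 on the log2 scale, and the mitosis and DNA replication lists. The CHR element stands at 78.4% in the mitosis list and 12.4% among all genes tested, while the κB motif is at 66.6% in genes that rose and 67.0% in all.

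Regulators of the cell cycle and p53 targets were lower more often than higher. Of 22 G1 cyclins, kinases and inhibitors 15 fell and 4 rose. Ccnd1, cyclin D1, went from 5240, 5100 and 4932 normalized counts to 888, 779 and 810 (log2(fc) −2.62), and Ccne2, cyclin E2, fell by 2.58. Ccnd2, cyclin D2, rose by 1.70, and Cdkn2b, the CDK inhibitor p15, from 57.9, 98.3 and 63.4 to 630, 627 and 680 (log2(fc) 3.16). Cdkn1a, the inhibitor p21 and a p53 target, fell by 0.32. Of 20 p53 targets 15 fell and 2 rose, namely Plk2 by 0.87 and Fas by 0.72, and Perp, Phlda3 and Sesn1 fell by 1.40, 1.37 and 1.27. In the BCL2 family 6 of 17 genes rose and 8 fell, beside 28.4% and 28.6% of all genes tested. The pro-death genes Pmaip1 and Bok fell, with −1.20 and −2.62, the survival gene Bcl2l1 fell by 0.78 and Bcl2a1a rose by 0.79. Reads of the Bcl2a1 copies may be divided between them.

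**Figure D4:**
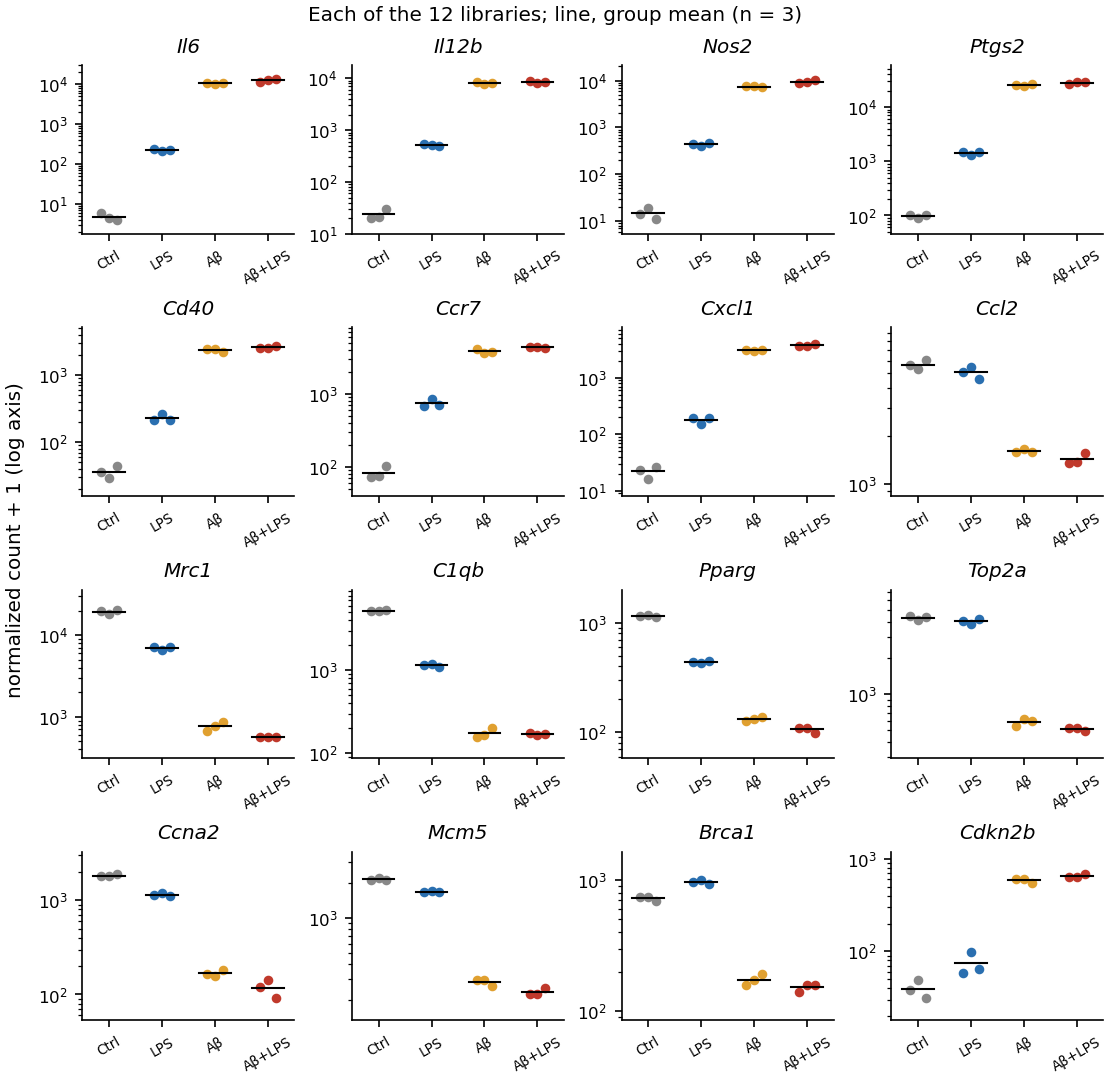
Normalized counts + 1 on a log axis for 16 named genes in each of the 12 libraries, by group, with the mean as a line (n = 3). The 3 Aβ+LPS libraries lie above the 3 LPS libraries in 8 genes (among them Il6 and Cd40) and below them in 8 (among them Mrc1 and Top2a). The 16 genes were picked for display, and the groups did not overlap for 61.7% of all genes tested.

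Most hypoxia and glycolysis genes rose and most genes of the citric acid cycle fell, while other mitochondrial genes moved in both directions. Of 17 genes that hypoxia induces 14 rose and 2 fell, with a median of 0.98. Egln3, an oxygen sensor and target of HIF, had 80.1, 100.3 and 73.1 normalized counts in LPS and 726, 683 and 769 in Aβ+LPS, a log2(fc) of 3.10 (SE 0.22), and Ddit4 and Vegfa rose by 2.07 and 1.21. Car9, another HIF target, had 179 ± 17.6 and 178 ± 1.41 and did not pass. Of 22 glycolysis genes 16 rose and 1 fell, Hk3 with −0.33. Slc16a3, which exports lactate, rose by 1.28 and the glucose carrier Slc2a1 by 1.04. In the citric acid cycle 20 of 22 genes fell and 1 rose, Pcx, pyruvate carboxylase, by 0.86, and Idh2 and Idh1 fell by 1.17 and 0.76. Changes in oxidative phosphorylation were smaller, with a median of −0.12 over 38 genes, of which 19 fell and 5 rose. Of 10 mRNAs of the mitochondrial genome 6 rose and none fell, with a median of 0.29.

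Lipid genes did not move as a block. Of 23 genes of cholesterol synthesis 13 rose and 4 fell, with Idi1 at 1.10 and Dhcr7, which makes the last step to cholesterol, at −1.05. Abca1, which exports cholesterol, rose from 5593, 5278 and 5994 normalized counts to 15324, 15376 and 17163, although Nr1h3, which encodes LXRα, and Apoe, other genes of the same pathway, fell by 0.97 and 2.38. Of 14 LXR and efflux genes 9 fell and 3 rose. Fabp4 and Fabp5, fatty acid carriers, fell by 2.66 and 1.33, and of 13 fatty acid and PPARγ genes 10 fell and 1 rose, Hilpda, which inhibits lipolysis, by 1.55. Of 39 lysosome genes 28 fell and 6 rose. The median there was −0.28, the master regulator Tfeb fell by 1.09 and the protease Ctsc rose by 0.82.

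Stress programmes rose in part. Of 20 NRF2 targets and antioxidant genes 12 rose and 3 fell. Gclc, which limits glutathione synthesis, rose by 1.66 and Nqo1 by 1.49, and Gpx1, a glutathione peroxidase, fell by 0.62. In the unfolded protein and integrated stress response 18 of 29 genes rose and 4 fell. Nupr1, a stress coregulator, went from 321, 363 and 297 normalized counts to 1427, 1501 and 1551, and Slc7a11, the cystine carrier, rose by 1.41. Hspa1b and Hspa1a rose by 1.62 and 1.58, but these copies are nearly identical and their reads are uncertain. Of 12 heat shock genes 4 rose and 3 fell, beside 28.4% and 28.6% of all genes tested. Iron genes rose in 12 of 15 cases. Hamp, the iron hormone hepcidin, had 13.5, 12.9 and 13.7 in LPS and 665, 673 and 787 in Aβ+LPS, a log2(fc) of 5.62 (SE 0.45). Steap3, a ferric reductase, was the iron gene that fell, by 1.57. Ribosomal protein genes fell in 39 of 40 cases, by a median of 0.35 (log2(fc) −0.35), and kept this direction with every scaling, the largest of which moved all genes by −0.026.

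Genes of matrix and adhesion rose more often than they fell. Of 20 metalloproteinases and inhibitors 15 rose and 3 fell. Mmp13 (chr9:7272514-7283331), collagenase 3, had 36426, 31675 and 35551 normalized counts in LPS and 166465, 169465 and 176931 in Aβ+LPS, a log2(fc) of 2.31 (SE 0.05, adjusted p = 9.9e-19), and Mmp10 rose by 4.00. Plau and Timp2 fell by 0.95 and 0.76. Of 17 adhesion ligands and matrix glycoproteins 11 rose and 5 fell. Thbs1, thrombospondin 1, stood at 24209, 22639 and 24158 and at 89461, 83379 and 94233, and Spp1, osteopontin, at 180903, 191095 and 187758 and at 94833, 85820 and 94556, so that these glycoproteins moved apart. Itgb8, a chain of the integrin that activates TGF-β, rose by 3.81. In all, 17 integrin genes held 7 that rose and 7 that fell, beside 28.4% and 28.6% of all genes tested. Dcn, decorin, went from 38.6, 44.7 and 30.2 to 1103, 1301 and 1280. It is a fibroblast marker, and that list summed to 6.61 to 7.62 CPM in LPS and 49.95 to 57.6 in Aβ+LPS, with Sparc at 0 and Col1a1, Col1a2 and Col3a1 under the filter. Of 6 tested members of this list 4 rose and 2 fell, with a median of 2.26. Without the filter the median of the list was 0.09, and with a minimum mean of 50 it was 1.82. Lum, a proteoglycan like decorin, had 0, 0 and 1.95 normalized counts in LPS and 27.0, 27.6 and 39.8 in Aβ+LPS, Thy1 and Pdgfrb rose by 2.70 and 1.82, and Postn and Pdgfra fell, with −2.53 and −2.11. Their part was not tested. Of 17 acute-phase and antimicrobial genes 9 rose and 8 fell, with Lcn2 and Orm1 at 2.94 and 2.45 and Ltf at −2.08. Neutrophil markers, which share some of these, summed to 2060 to 2182 CPM in LPS and 2526 to 2596 in Aβ+LPS. Of 7 neutrophil markers tested 3 rose and 4 fell, with a median of −0.74. Without the filter the median of the neutrophil list was 0.04, so its sign did not hold. The part of such cells was not tested.

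Genes tied to amyloid moved little, and most genes of plaque-associated microglia fell. Of 20 genes of the precursor, the secretases and enzymes that degrade Aβ 10 rose and 6 fell, with a median of 0.10. App, the precursor, had 20843, 19889 and 21496 normalized counts in LPS and 22929, 21956 and 22851 in Aβ+LPS, a log2(fc) of 0.12 (SE 0.04, adjusted p = 0.012), and Bace1, the β-secretase, went from 274, 279 and 294 to 467, 459 and 475 (log2(fc) 0.72). Ece1 and Mmp9, which can cleave Aβ, rose by 0.83 and 1.57, and Psen2 fell by 0.33. Of 25 genes that microglia raise around plaques 19 fell and 6 rose. Apoe went from 560, 522 and 618 to 111, 111 and 101 (log2(fc) −2.38), and Tyrobp and Trem2, an adaptor and the receptor it serves, fell by 0.91 and 0.53. Cst7, an inhibitor of proteases, rose by 1.08.

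Chromatin enzymes and vesicle traffic held single changes of size. Dnmt3a, a DNA methyltransferase, stood at 31845, 29838 and 33107 normalized counts in LPS and at 12334, 11907 and 12165 in Aβ+LPS, a log2(fc) of −1.38 (SE 0.04). Ezh2, which trimethylates histone H3, and Dnmt1 fell by 1.66 and 0.75, and Tet1 and Kdm6b, which remove methyl groups from DNA and histones, rose by 1.97 and 0.91. Of 30 chromatin enzymes 10 rose and 9 fell, near the 28.4% and 28.6% of all genes tested, so the list as a whole did not stand out. Of 27 Rab genes and partners 11 rose and 10 fell, above these shares in each direction, from Rab11fip1 at 1.47 to Rab3il1 at −2.13. Of 25 actin genes 14 fell and 4 rose, among them Gsn, gelsolin, at −0.80.

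The oligomers changed largely the same genes in cells without LPS. Aβ vs. Ctrl shares no library with Aβ+LPS vs. LPS. Of the 3980 genes that rose with LPS present, 3294 (82.8%) also rose without it, where 4981 rose in all, and of 4015 that fell, 3339 (83.2%) also fell without it, where 4712 fell in all. Only 81 and 107 were called in opposite directions. Of the 2050 genes changed by more than 1 on the log2 scale, 1980 had the same sign without LPS and 1366 changed by less with LPS than without it. The effect of Aβ differed with and without LPS for 4535 genes, or 32.4% of the genes tested, by the interaction of the model, of which 2368 had a lower and 2167 a higher log2(fc) with LPS.

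The lists differed in how far this went. Median log2(fc) values of mitosis genes were −2.91 with LPS and −2.92 without, with 12 of 44 interactions called, and those of DNA replication −2.01 and −1.97, with 8 of 38 called. Nfkbia had 2.02 and 2.00 and Mmp13 2.31 and 2.30. In contrast, genes of dendritic cell maturation had medians of 1.47 and 2.94, with 17 of 19 interactions called. Ccl5 illustrates the widest gap, with 110 ± 7.42 normalized counts in Ctrl and 80982 ± 3424 in Aβ, against 37159 ± 1667 in LPS and 95963 ± 4131 in Aβ+LPS (SD, n = 3 each), or a log2(fc) of 9.51 without LPS and 1.37 with it. Lcn2 and Saa3 had interactions of −6.98 and −6.17 and the macrophage genes Cd5l and Apoe of 4.40 and 3.53. Plagl1, a zinc finger factor, differed from these, with means of 16.3 normalized counts in Ctrl and 16.2 in Aβ, against 196 in LPS and 12.3 in Aβ+LPS, and log2(fc) values of −3.90 with LPS and −0.06 without. Median changes of cholesterol synthesis had opposite signs, 0.32 with LPS and −0.48 without, with 19 of 23 interactions called, among them Idi1 with 1.10 and −0.37.

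**Figure D5:**
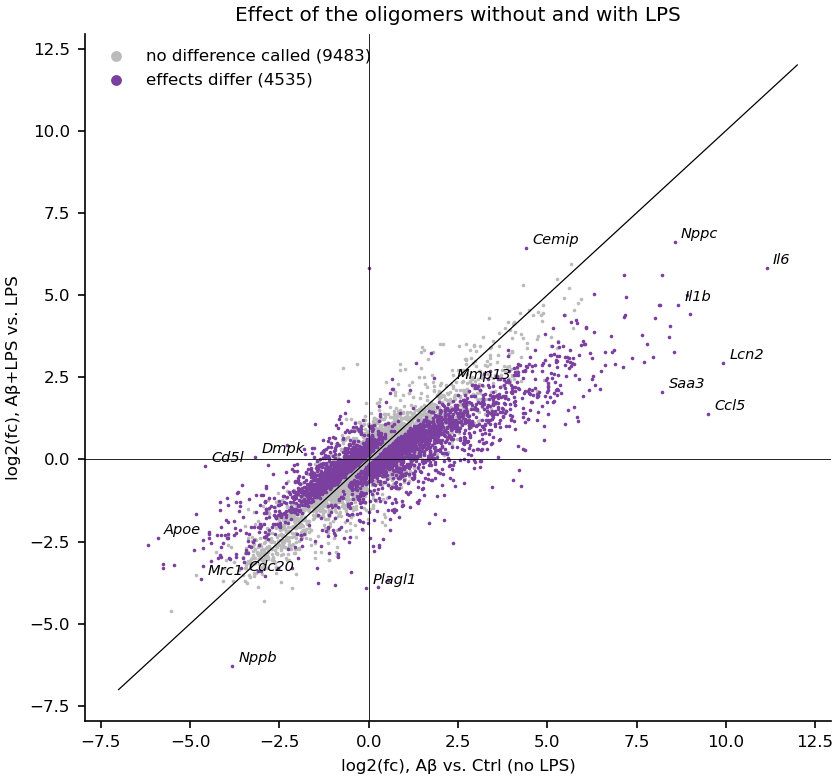
Each point is 1 of the 14018 genes tested, with the log2(fc) of Aβ vs. Ctrl on the horizontal and that of Aβ+LPS vs. LPS on the vertical axis, and the diagonal marks equal effects. The 4535 genes in purple differ between both by the interaction. Il6, Lcn2, Saa3 and Ccl5 lie right of the diagonal, Cdc20 and Mmp13 on it, and Plagl1 near 0 without LPS.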

How the data were processed

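In all 12 RNA-seq libraries of BM-DCs were used, 3 each of Ctrl, LPS, Aβ and Aβ+LPS. The deposited values were gene counts that the authors had divided by size factors, treated here as signal. The submitters' processing notes name FastQC 0.11.5, HISAT2 2.1.0, featureCounts 1.6.0, DESeq2, R 3.4.4 and GRCm38. The table lists 53465 genes, 26760 of them with a read. Each value came back to whole reads within 0.05 in 100.0% of cases, which gave 23415609 to 29690965 reads per library. Columns with fold changes, p-values and gene ontology marks of the authors were not used.

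Genes that averaged 10 or more in LPS or Aβ+LPS were tested with limma 3.58.1 (R 4.3.3) on log2(value + 1), with an intensity trend, all 12 libraries in 1 fit with 8 residual degrees of freedom, the contrast of Aβ+LPS with LPS, and the interaction with Aβ vs. Ctrl. P-values were adjusted by Benjamini-Hochberg over the 14018 genes tested and called at 0.05. No library of a group repeated another, with chi-square values per gene of 3.936 to 13.191 in both groups. The scripts were tested on simulated data. Alternatives were pseudocounts of 0.5 and 5, a minimum of 50 or none, the 6 libraries alone, other scalings, edgeR 4.0.16 and DESeq2 1.42.0 on recovered reads, a replicate block and leaving out each library. Figures used Matplotlib 3.10.9.

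The comparison and its 75 gene lists were chosen with earlier results of these data known. Names were drawn from the 15 widest changes in each direction with a mean of at least 100 and no overlap, up to 5 members of each list in a direction, members against their list's majority, defining members, the 10 most abundant genes changed by more than 1 in each direction, and the 6 widest interactions in each direction. App, Arg1, Casp1, Car9, Ccna2, Cdkn1a, Clcf1, Ebi3, Ect2, Gins3, H2-Ab1, Il1rn, Il27, Il4i1, Irf7, Kif11, Mcm5, Nfkb1, Osm, Pola2, Rbbp8, Rela, Tlr4, Top2a, Trem2 and Tyms fall outside this rule and were chosen after their values were seen. Some genes under the rule are not reported here by name.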

Additional observations from a re-analysis of the deposited data

Results flagged for a closer look

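The effect of Aβ differed with and without LPS for 4535 genes by the interaction in limma, which subtracts the log2(fc) of Aβ vs. Ctrl from that of Aβ+LPS vs. LPS. The widest negative terms among genes that averaged 100 or more in a group were those of Ccl5 (−8.14), Lcn2 (−6.98), Saa3 (−6.17), Il6 (−5.33), Vnn3 (−5.26) and Susd2 (−4.85). Each of these 6 genes rose with Aβ in both settings, and its mean in LPS was above that in Ctrl. Vnn3 had means of 26.8 normalized counts in Ctrl and 10316 in Aβ, against 1157 in LPS and 11204 in Aβ+LPS.

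The widest positive terms were those of Cd5l (4.40), Tceal7 (3.58), Apoe (3.53), Dmpk (3.25), Il1rl1 (3.19) and C1qa (2.87). All 6 had lower means in LPS than in Ctrl. Cd5l had means of 1715 normalized counts in Ctrl and 69.9 in Aβ, against 89.4 in LPS and 78.1 in Aβ+LPS, and neither it nor Dmpk was called in Aβ+LPS vs. LPS. Tceal7 had 0.673 in Aβ and 1.25 in Aβ+LPS, too few reads for the size of its change.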

How the results depend on the processing

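With a minimum mean of 50 in place of 10, 646 genes rose by more than 1 on the log2 scale in place of 1031, since fewer genes were tested. The other 89 counts over all alternatives stayed within 1.5 times of their main values. Leaving out 1 library at a time gave 3595 to 3800 genes higher, 3697 to 3861 lower, 953 to 1017 higher and 999 to 1016 lower by more than 1, and 4005 to 4619 interactions. On recovered reads edgeR called 4074 higher and 4111 lower and DESeq2 3915 and 3956. Scaling to the same total moved the median of all genes by −0.026 and gave 3695 and 4278. Same-numbered LPS and Aβ+LPS libraries did not deviate together (correlations of 0.015, −0.085 and −0.015), so the numbers were not taken as pairs, and with the replicate block 4027 genes were higher and 4035 lower. No library correlated best with its own number. Of the 562 genes under the naming rule 522 kept direction and side of the threshold throughout, and the other 40 did not in some alternative. Dmpk, at 0.08 and not called, came to −0.08 without Aβ+LPS replicate 3 and −0.01 without LPS replicate 3, within a range of −0.08 to 0.25 over libraries left out. Medians of lists with many low genes moved, that of CC chemokines to 0.63 and of metalloproteinases to 0.36 with a minimum of 50, and that of acute-phase genes to 0.00 with none. Medians of fibroblast, neutrophil, B cell and mast cell markers moved too, as given above. Genes at means under 100 had a median SE of 0.332 against 0.046 at 10000 and above, which limits calls there.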

Other observations

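Immunoglobulin transcripts set the Aβ+LPS libraries apart from each other. Ighv1-4, a variable segment chosen after its values were seen, was at 0 in all 9 other libraries and at 17.7, 59.5 and 162 normalized counts in the Aβ+LPS libraries. Ighm, the constant chain of IgM, had 590, 736 and 711 in LPS and 832, 1185 and 2520 in Aβ+LPS, so the third Aβ+LPS library was the highest for both.

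The letters of the interferon response element, GAAANNGAAA on either strand, stood in 13 of 25 promoters of interferon-stimulated genes, or 52.0%, beside 3.25% of promoters of all genes tested. Genes of ribosome biogenesis fell in 15 of 20 cases and none rose, with a median log2(fc) of −0.39. Receptors for growth factors of myeloid cells rose in 12 of 22 cases and fell in 5.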
